A study of Mus musculus with 6 samples.

Results

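The comparison asked how gene expression differed between fat cells given the conjugated linoleic acid c9,t11-CLA and fat cells given its vehicle, with the antiretroviral drug ritonavir present in both. It used 2 of the 6 arrays of the series, chosen by their treatment labels: the array labelled Ritonavir+c9,t11 and the array labelled Ritonavir+DMSO. The cells were 3T3-L1 adipocytes, which grow from a mouse preadipocyte line and mature in culture after a pulse of insulin, isobutylmethylxanthine and dexamethasone. Both cultures then received 20 µM ritonavir in insulin medium for 5 days, one of them with 100 µM c9,t11-CLA and the other with 0.1% DMSO, which the design names as the control for the fatty acid vehicle. The labels do not say whether the fatty acid medium held the same volume of DMSO. The same experiment had another culture with 20 µM ritonavir and 100 µM t10,c12-CLA, the isomer in which the conjugated double bonds sit elsewhere in the chain, with trans before cis. An earlier experiment had cultures with 0.1% ethanol, with 1 µM tenofovir and with 20 µM ritonavir alone, also for 5 days. RNA of 4 replicate experiments was pooled for each group and put on 1 array, so a difference between arrays has no replicate error, no test was made, and every value below describes these arrays only.

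Conjugated linoleic acids are isomers of linoleic acid made mainly by bacteria in the rumen, and c9,t11-CLA is the form that prevails in milk and ruminant meat. The t10,c12 isomer is known for lowering fat storage in mice and in cultured adipocytes. Ritonavir inhibits the HIV protease, and drugs of its class have been tied to loss of subcutaneous fat and to impaired adipocyte maturation. Preadipocytes in culture pass through a round of division after hormonal induction and then leave the cell cycle as they fill with fat, so cell cycle, matrix and fat storage genes each report on a stage of that course.

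Levels are log2 values of probe sets, and a difference of 1 means a doubling. A gene was represented by its brightest probe set and counted as detected if any of the 6 arrays showed it at 6.55 or more, the table's median, as held for 12386 genes. The c9,t11-CLA and DMSO arrays were close to each other, with a correlation of 0.997 over all probe sets. The robust SD of the gene differences was 0.136, against 0.113 for tenofovir minus ethanol and 0.235 for t10,c12-CLA minus DMSO. Over all detected genes the median difference was 0.01, and 52.3% lay above 0. A log2 difference of 0.32, which is 25% more on the linear scale, was used as the smaller of 2 thresholds. With c9,t11-CLA 322 genes (2.6%) were at least 0.32 higher and 135 genes (1.09%) at least 0.32 lower. Between tenofovir and ethanol, a pair with no fatty acid, 1.15% of genes passed that threshold upward and 1.19% downward. The c9,t11-CLA pair therefore held more genes above that threshold than the tenofovir pair, and about as many past it downward. At 1.5-fold there were 12 genes higher (0.0969%) and 9 lower (0.0727%), and at 2-fold 0 genes higher and 1 lower. That gene, AY036118, was singled out after its value was seen; its level was 10.72 with DMSO and 9.65 with c9,t11-CLA.

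**Figure D1:**
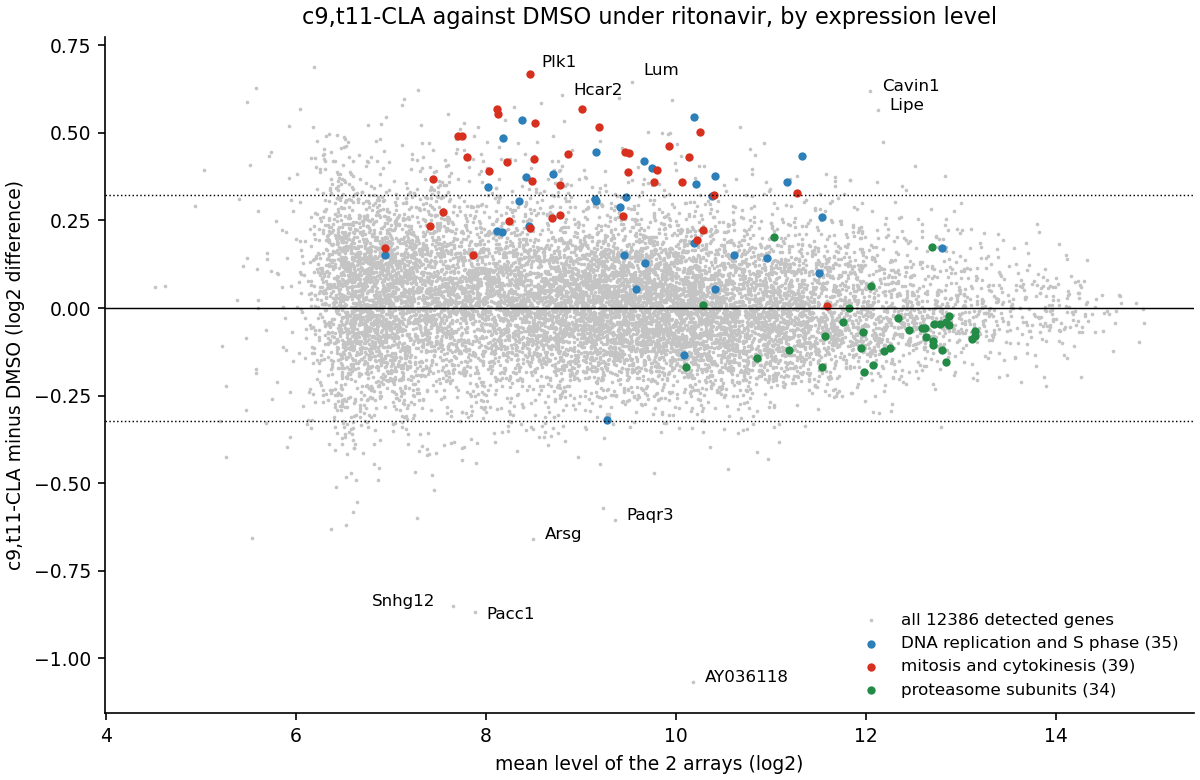
Difference between the c9,t11-CLA and DMSO arrays (log2, vertical axis) against the mean level of both arrays (log2, horizontal axis), 1 point per detected gene; dotted lines mark differences of 0.32 and -0.32. The 39 mitosis genes (red) all lie above 0 and most of the 35 S phase genes (blue) do, while the 34 proteasome genes (green) lie in a narrow band mostly just under 0.

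The widest shift toward higher values among the gene lists was in mitosis and cytokinesis. All 39 detected members, of 40 listed, were above 0, and 26 of them at least 0.32 higher (66.7% against 2.6% of all detected genes). Their median difference was 0.39, against 0.01 for all detected genes. The same genes had a median of -0.17 with t10,c12-CLA against the same DMSO array, where 6 of 39 lay above 0, and of -2.08 with ritonavir against ethanol. In bulk RNA, a different number of dividing cells and a different amount of these transcripts per dividing cell cannot be told apart. Promoter sequences are shown for members at the top of the mitosis and S phase lists because both lists moved together and their promoters are known for different elements.

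The sequences are from RefSeq on GRCm38.p6, on the strand of the gene, from 150 bases before to 50 after the start. Capitals mark, on either strand, the words TTTGAA (the cell cycle genes homology region, bound by the DREAM complex), CCAAT, and TTTCGCGC, TTTGGCGC or GGCGGGAA (E2F sites), with overlapping matches joined.
Plk1 (chr7:122159285-122159484, plus strand): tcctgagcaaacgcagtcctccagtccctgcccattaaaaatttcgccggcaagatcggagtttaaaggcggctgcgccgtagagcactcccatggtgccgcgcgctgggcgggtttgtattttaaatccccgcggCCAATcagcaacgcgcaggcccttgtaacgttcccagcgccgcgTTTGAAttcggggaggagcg
Hmmr (chr11:40733388-40733587, minus strand): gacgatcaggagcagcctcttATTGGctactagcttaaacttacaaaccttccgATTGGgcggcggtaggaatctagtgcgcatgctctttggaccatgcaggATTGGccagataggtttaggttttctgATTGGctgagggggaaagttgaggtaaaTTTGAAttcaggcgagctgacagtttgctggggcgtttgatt
Mki67 (chr7:135716330-135716529, minus strand): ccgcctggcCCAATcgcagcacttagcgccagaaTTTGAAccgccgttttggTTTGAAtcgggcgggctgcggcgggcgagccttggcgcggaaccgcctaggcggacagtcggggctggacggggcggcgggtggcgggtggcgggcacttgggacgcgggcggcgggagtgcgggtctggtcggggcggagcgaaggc
Nusap1 (chr2:119618148-119618347, plus strand): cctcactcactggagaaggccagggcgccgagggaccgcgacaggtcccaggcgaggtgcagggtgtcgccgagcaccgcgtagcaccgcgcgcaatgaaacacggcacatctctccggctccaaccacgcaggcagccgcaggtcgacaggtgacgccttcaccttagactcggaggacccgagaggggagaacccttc
Mcm6 (chr1:128359656-128359855, minus strand): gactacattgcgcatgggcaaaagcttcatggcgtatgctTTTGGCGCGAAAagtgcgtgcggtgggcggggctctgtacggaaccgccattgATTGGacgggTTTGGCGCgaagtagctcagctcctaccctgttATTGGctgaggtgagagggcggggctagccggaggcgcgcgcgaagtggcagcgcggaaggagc
Cdc45 (chr16:18811923-18812122, minus strand): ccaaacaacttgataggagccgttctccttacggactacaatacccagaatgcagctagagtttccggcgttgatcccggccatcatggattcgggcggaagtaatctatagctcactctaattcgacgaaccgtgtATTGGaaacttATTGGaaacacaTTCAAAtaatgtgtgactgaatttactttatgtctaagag
Over 250 bases before to 50 after the start, TTTGAA was in 26 of the 33 mitosis genes with a sequence (78.8%), against 20.2% of all 27025 promoters and 13.9% of those of detected genes. In the S phase list it was in 3 of 29. E2F words were in 14 of 29 S phase promoters (48.3%) and 1 of 33 mitosis promoters, against 3.39% of all and 6.09% of those of detected genes. Within the mitosis list, the median difference with c9,t11-CLA was 0.36 for genes with TTTGAA and 0.43 for genes without it. The word thus set the lists apart but did not sort the mitosis genes by their difference, and Nusap1, which holds none of these words in the window shown, was among the genes furthest up.

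Plk1, the polo-like kinase that drives entry into mitosis, had the highest difference of the genes measured on both arrays. Its level was 9.65 with ethanol, 9.43 with tenofovir and 7.35 with ritonavir in the first experiment, and 8.13 with DMSO, 8.80 with c9,t11-CLA and 8.14 with t10,c12-CLA in the second. The difference from DMSO was 0.67 for c9,t11-CLA and 0.00 for t10,c12-CLA. The c9,t11-CLA array thus stood highest of the 4 arrays with ritonavir and under both arrays without it. In ranks across the first and second experiment, here and below, treatment cannot be told apart from experiment or vehicle. Mki67, the proliferation antigen Ki-67, also stood highest of the ritonavir arrays with c9,t11-CLA and under both arrays without ritonavir, at 10.40, 10.42 and 7.63 on the arrays of ethanol, tenofovir and ritonavir, and at 8.93, 9.45 and 8.78 on those of DMSO, c9,t11-CLA and t10,c12-CLA. All 39 mitosis genes had a c9,t11-CLA level between those of the DMSO array and of the ethanol array, which is from the first experiment.

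Motor and spindle proteins were among the members furthest up. Kif20a, a kinesin of the late spindle, was 0.57 higher with c9,t11-CLA (7.83 to 8.40). Nusap1, which bundles spindle microtubules, went from 8.73 to 9.29 and Hmmr, a spindle assembly factor, from 7.85 to 8.41. By the mean of all their probe sets, Nusap1 was 0.32 and Hmmr 0.24 higher. These c9,t11-CLA levels were also above those of the t10,c12-CLA array, at 7.54 for Kif20a, 8.27 for Nusap1 and 7.77 for Hmmr. Regulators followed with smaller values: Aurkb, the kinase of the chromosomal passenger complex, at 0.53, Cdc20, an activator of the anaphase-promoting complex, at 0.46, and Ccna2, cyclin A2, at 0.44. Bub3, a checkpoint protein, was the member nearest to 0, at 0.01 by its brightest probe set and 0.11 by its other at the level, and its level lay between 11.58 and 11.72 on all 6 arrays. Further mitotic genes outside the list stood among the 15 genes furthest up, namely Haspin, the kinase of histone H3 at centromeres (0.60), Ckap2, a spindle protein (0.58), and Fam83d, a spindle protein (0.58).

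DNA replication and S phase genes shifted the same way with a smaller median, 0.31 over 35 detected members. Of these, 33 were above 0, and 13 passed 0.32 upward (37.1%, against 2.6% of all detected genes) and 0 downward. Mcm6, a subunit of the replicative helicase, stood at 10.80 with ethanol, 10.70 with tenofovir, 10.18 with ritonavir, 9.92 with DMSO, 10.47 with c9,t11-CLA and 10.17 with t10,c12-CLA. Its difference of 0.54 placed the c9,t11-CLA array above the other arrays with ritonavir, but its other probe set at the level gave 0.20. Cdc45, which loads with that helicase, was 0.54 higher by its brightest probe set, but its other probe set was at -0.06. Rrm2, a subunit of ribonucleotide reductase, was 0.43 higher, and Cdc6, which licenses origins, 0.49 higher. The exceptions were Rfc3, a clamp loader subunit, at -0.32 and just short of the threshold, and Dut, a dUTPase, at -0.14. Another probe set put Rfc3 at -0.17, and Dut turned to 0.30 with only the probe sets whose names carry no suffix for cross-hybridisation (unsuffixed), so no direction is given for Dut. With t10,c12-CLA the list had a median of 0.04. Exo1, a repair exonuclease that is outside the list, was 0.62 higher, from 6.97 to 7.60.

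The regulators of G1 showed no such shift, with 12 of 21 detected members above 0 and a median of 0.05. Among them Ccnd3, cyclin D3, was 0.44 higher, though 0.11 by its other probe set at the level, and Cdkn2c, an inhibitor of CDK4 and CDK6, was 0.33 higher. Cdkn2c stood at 12.50 with ethanol, 9.56 with ritonavir, 11.35 with DMSO, 11.68 with c9,t11-CLA and 10.25 with t10,c12-CLA. Gadd45a, a stress gene that halts the cycle, was lower, at 11.92 against 12.22 with DMSO.

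**Figure D2:**
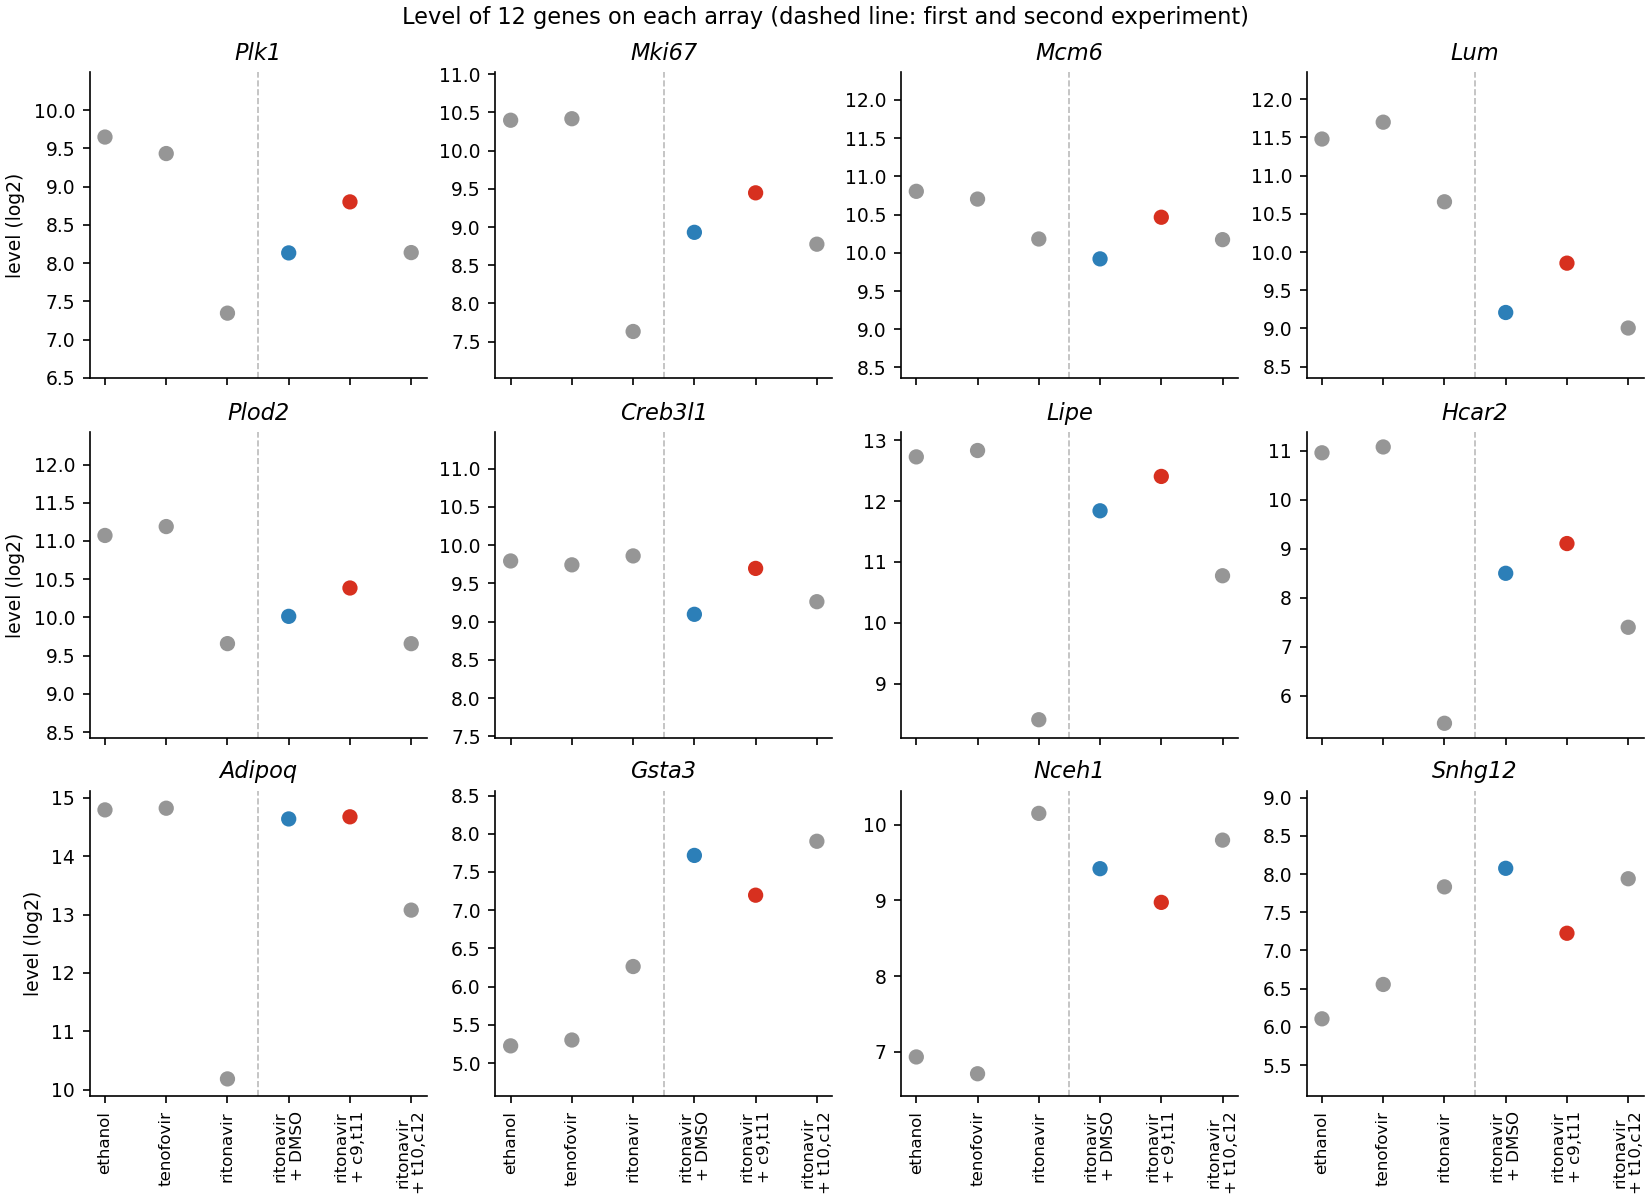
Level (log2) of 12 genes on each of the 6 arrays, with the DMSO array in blue, the c9,t11-CLA array in red and the others in grey. For Plk1, Mki67, Lipe and Hcar2 the c9,t11-CLA level lies above the other ritonavir arrays and under the ethanol array, whereas Adipoq is nearly level between DMSO (14.64) and c9,t11-CLA (14.67). Ethanol, tenofovir and ritonavir alone were in the first experiment and the others in the second.

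Extracellular matrix genes were mostly above 0 with small differences. Of 18 detected collagens 16 lay above 0, with a median of 0.15, and 0 passed 0.32 in either direction. The values ran from -0.15 for Col8a1, which was at -0.0055 by the mean of its probe sets, to 0.28 for Col15a1. Col1a1, the main fibrillar collagen, was at 0.11 and by its other probe set at 0.26. Proteoglycans and glycoproteins had a median of 0.11, with 23 of 29 above 0. Of them 5 were at least 0.32 higher (17.2%, against 2.6% of all detected genes). The furthest was Lum, lumican, a small proteoglycan that orders collagen fibrils. Its level was 11.48 with ethanol, 11.70 with tenofovir, 10.66 with ritonavir, 9.21 with DMSO, 9.85 with c9,t11-CLA and 9.01 with t10,c12-CLA. Here the c9,t11-CLA array stood above DMSO by 0.65 and yet under the array with ritonavir alone. Prelp, another collagen-binding proteoglycan, was 0.50 higher (0.32 by its other probe set) and Tnc, tenascin C, 0.47 higher, whereas Ogn, osteoglycin, was at -0.26.

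The enzymes that modify and cross-link collagen had a median of 0.18, with 22 of 25 above 0. Of them 4 were at least 0.32 higher (16%, against 2.6% of all detected genes). These 4 were the lysyl hydroxylases Plod1, Plod2 and Plod3, each 0.37 higher, and the prolyl hydroxylase subunit P4ha2, 0.34 higher. For Plod1 and Plod2 another probe set gave less, 0.04 and 0.16. Plod3 has 1 probe set; its level was 11.65 with DMSO, 12.02 with c9,t11-CLA and 11.61 with t10,c12-CLA. Mmp13, a collagenase, differed by -0.38, at 6.70 against 7.07 with DMSO, both near the detection level, and 8.32 with t10,c12-CLA. Creb3l1, a transcription factor of the endoplasmic reticulum that acts on collagen genes, was among the 15 genes furthest up, at 9.10 with DMSO, 9.70 with c9,t11-CLA and 9.26 with t10,c12-CLA.

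Transcription factors of fat cell formation lay above 0 in 20 of 21 cases, with a median of 0.12. Only 1 was at least 0.32 higher (4.76%, against 2.6% of all detected genes). That one was Cebpa, which with PPAR gamma drives adipocyte maturation. It stood at 12.18 with ethanol, 12.21 with tenofovir, 8.68 with ritonavir, 11.49 with DMSO, 11.86 with c9,t11-CLA and 10.65 with t10,c12-CLA. Between the isomers it thus lay on opposite sides of DMSO. Pparg itself was 0.20 higher, Rxra, its partner, 0.26 higher with 0.13 by its other probe set at the level, and Klf4, an early factor, was at -0.26.

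Markers of mature adipocytes had a median of 0.14, with 14 of 18 above 0. Of them 5 were at least 0.32 higher (27.8%, against 2.6% of all detected genes) and 1 at least 0.32 lower. The last was Lep, which was under the detection level on both arrays. Lipe, hormone-sensitive lipase, which breaks down stored diglyceride, was at 12.73 with ethanol, 12.83 with tenofovir, 8.41 with ritonavir, 11.84 with DMSO, 12.41 with c9,t11-CLA and 10.77 with t10,c12-CLA. Its second probe set lay under the detection level, and the mean of both gave 0.18 in place of 0.57. Car3, a carbonic anhydrase abundant in fat, was 0.52 higher (10.41 to 10.93), by its other probe set at the level 0.44 higher and by the mean of all 0.29 higher. Retn, resistin, was 0.41 higher. Pnpla2, adipose triglyceride lipase, was 0.38 higher by its brightest probe set and 0.01 by the other, and Gpd1, which makes glycerol phosphate, was 0.35 higher with 0.14 and 0.15 by the others. All of these stood lower with t10,c12-CLA than with DMSO, as did 17 of the 18 markers, with a median of -0.95. Hcar2, the niacin receptor that restrains lipolysis, is outside the list and was 0.61 higher, at 8.50 with DMSO, 9.10 with c9,t11-CLA and 7.39 with t10,c12-CLA.

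Other much-used adipocyte genes had smaller differences by their brightest probe sets. Adipoq, adiponectin, differed by 0.04, Lpl by -0.04 and Fabp4 by -0.10, all at levels above 14 where array signals can be compressed. The other probe sets of Fabp4 were at -0.52, 0.25 and 0.26 and that of Lpl at 0.09, so no direction is given for either. Slc2a4, the insulin-dependent glucose transporter, was 0.16 higher and by its other probe set 0.41 higher. Lep, leptin, was at 5.37 with DMSO and 5.04 with c9,t11-CLA, under the detection level, so its difference has no weight.

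Genes of lipid handling were mostly above 0 by little. Fatty acid synthesis had a median of 0.10, with 15 of 20 above 0; Fasn, fatty acid synthase, was 0.26 higher, Scd1, a desaturase, 0.14 higher with 0.02 by its other probe set, and Pnpla3, a lipase homologue, 0.36 higher. Triglyceride and droplet genes had a median of 0.10, with 19 of 22 above 0, and of 0.06 with only unsuffixed probe sets. Fatty acid oxidation had a median of 0.08, with 21 of 27 above 0, but of 0.0041 when the probe sets of each gene were averaged. Its 1 member at least 0.32 higher (3.7%, against 2.6% of all detected genes) was the peroxisomal transporter Abcd2, at 0.48. The other probe sets of Abcd2 gave 0.19 and 0.44. Targets of the PPAR receptors, which fatty acids bind, had a median of 0.03, with 17 of 26 above 0. In that list Angptl4, an inhibitor of lipoprotein lipase and a common PPAR marker, was at 0.38 by its brightest probe set and at -0.38 by the other, which lay under the detection level, so no direction is given for it. Cpt1a was at 0.13 but at -0.16 by its other probe set at the level, so it has no direction either, and Plin2 was at 0.02. The half-site AGGTCA on either strand was in 6 of 24 PPAR target promoters (25%), in 18.1% of all and in 15.1% of those of detected genes. It was in 8 of 28 proteasome promoters (28.6%), so it did not set the PPAR list apart.

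Cholesterol synthesis and oxidative phosphorylation showed next to no shift. Of 22 detected cholesterol genes 11 lay above 0 and 11 below, with a median of 0.01 and a range from -0.16 for Fdps (-0.06 by the mean of its probe sets) to 0.20 for Dhcr7. The same genes had a median of -0.98 with t10,c12-CLA. Oxidative phosphorylation had a median of 0.00 over 31 genes, from -0.22 for Cycs, cytochrome c, to 0.10 for Sdhc (-0.06 by its other probe set), against -0.30 with t10,c12-CLA, where 0 of 31 lay above 0. The isomers were given at the same dose for the same time against the same DMSO array, but with 1 array each the difference between them has no error and was not tested.

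**Figure D3:**
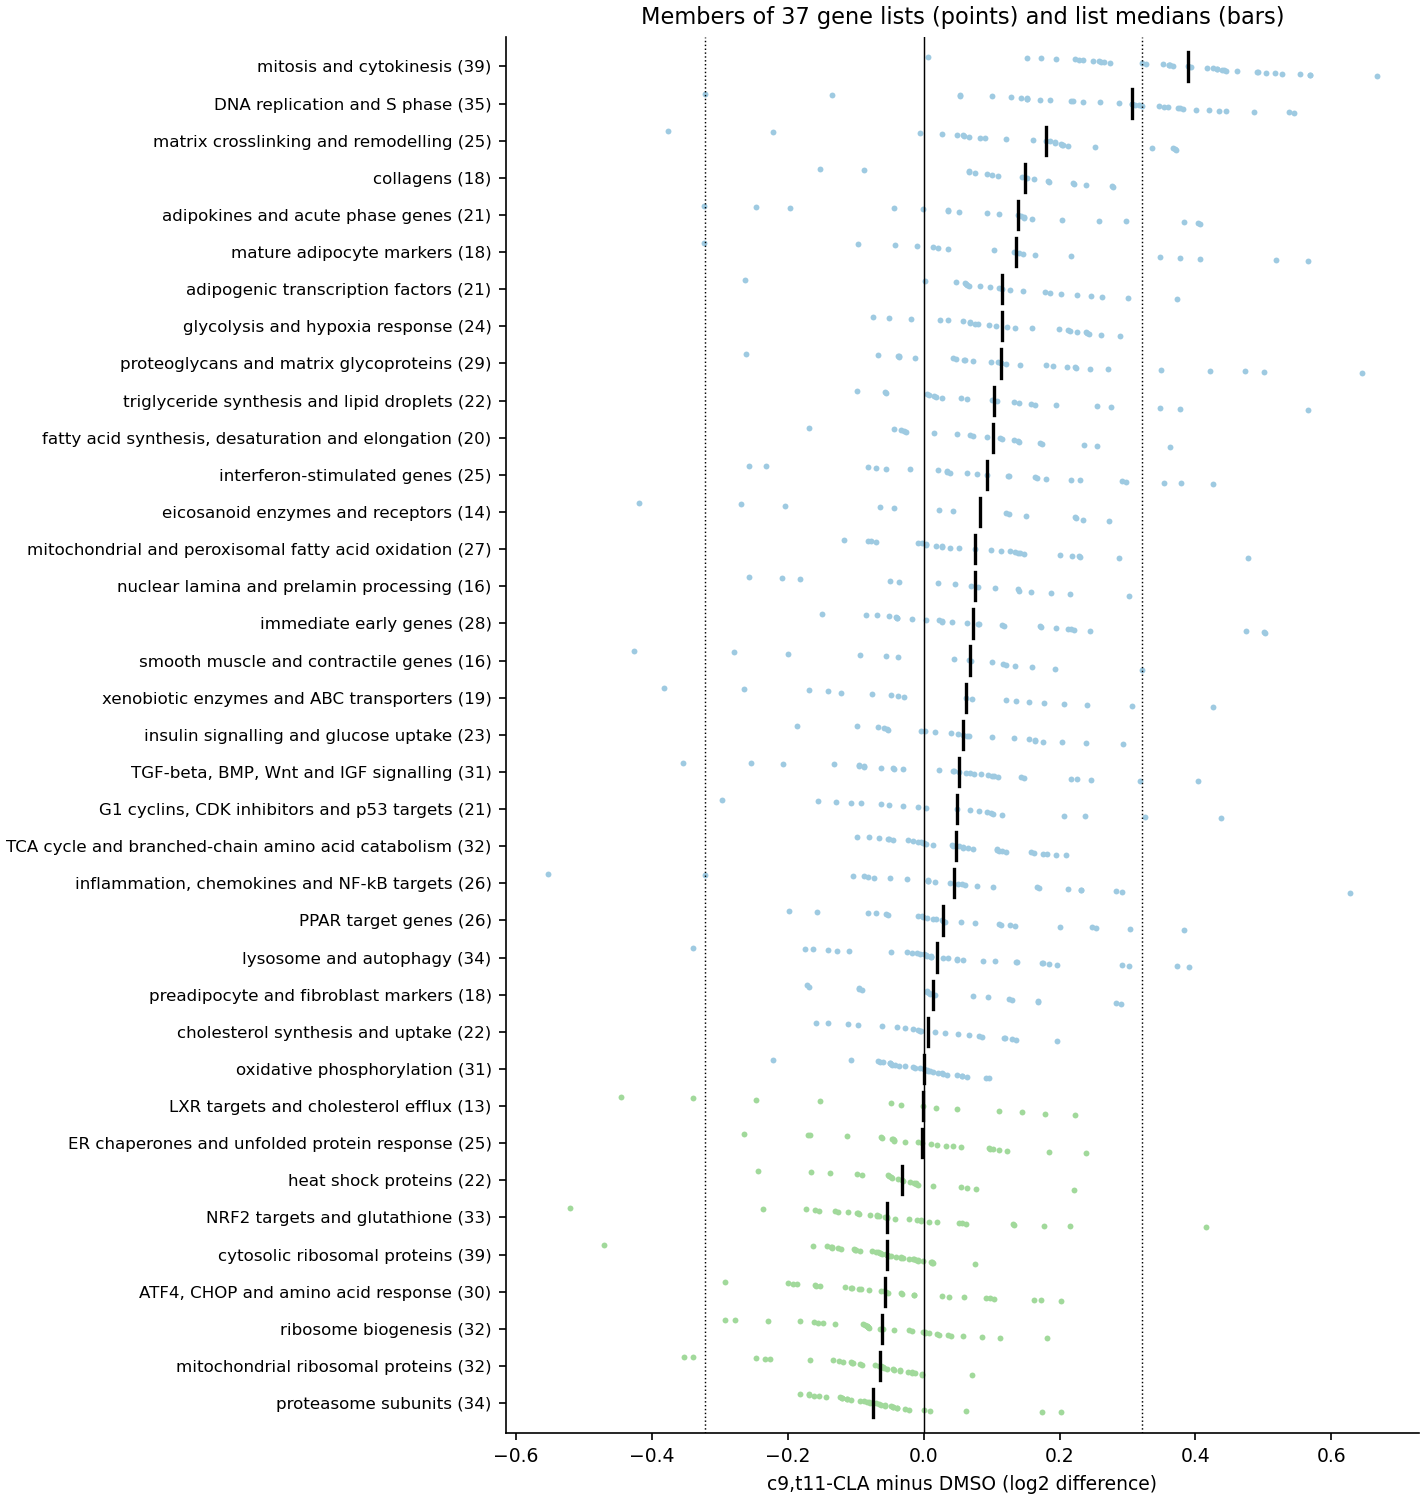
Difference between the c9,t11-CLA and DMSO arrays (log2) for the detected members (points) of 37 gene lists, with bars at the list medians, the number of detected members in brackets and dotted lines at 0.32 and -0.32. Mitosis (0.39) and S phase (0.31) stand apart at the top; the medians for cholesterol, oxidative phosphorylation, chaperones of the endoplasmic reticulum and xenobiotic enzymes changed sign under at least 1 other processing.

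Lists of protein synthesis and turnover other than lysosome and autophagy (median 0.02) lay mostly below 0, with small differences, as did some of the stress lists described further on. Of all detected genes 47.6% lay below 0 and 1.09% were at least 0.32 lower. Of 34 proteasome subunits 29 lay below 0 and 4 above, with a median of -0.07 and 0 past 0.32 in either direction. Psmc5, an ATPase of the proteasome cap, was lowest at -0.18, while the cap subunits Psmd3 and Psmd2 were at 0.20 and 0.17, the latter at 0.04 by the mean of its probe sets. Mitochondrial ribosomal proteins lay below 0 in 31 of 32 cases, with a median of -0.06. Of the 2 that were at least 0.32 lower, Mrps23 had its other probe sets on the same side, at -0.26 and -0.13, and Mrpl1, at -0.35, had one at 0.05. Cytosolic ribosomal proteins lay below 0 in 34 of 39 cases, with a median of -0.05, and Rpl27a was the lowest at -0.47, though at -0.09 by the mean of its probe sets. With t10,c12-CLA, proteasome and cytosolic ribosomal genes had medians of 0.15 and 0.10, on the other side of 0. Mitochondrial ribosomal genes stayed on the same side with t10,c12-CLA, with a median of -0.23 and 1 of 32 above 0.

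Stress and immune lists were mixed. Targets of ATF4 and CHOP had a median of -0.06, with 21 of 30 below 0; Atf3 was at -0.29 and Ddit3, the gene of CHOP, at -0.19. Heat shock proteins had a median of -0.03, with 17 of 22 below 0. NRF2 targets had a median of -0.05, with 23 of 33 below 0, Gsta3, a glutathione transferase, at -0.52 (7.72 to 7.20) and Sod3, a secreted superoxide dismutase, 0.41 higher but at -0.25 by its other probe set. Immediate early genes had a median of 0.07; Zfp36 and Fosl1 were each 0.50 higher and Egr1 0.47 higher. These 3 stood higher still with t10,c12-CLA, at 10.14 for Zfp36, 10.22 for Fosl1 and 12.56 for Egr1. Inflammatory genes had a median of 0.04, against 0.46 with t10,c12-CLA. In that list Il6 was at 6.92 with DMSO and 6.36 with c9,t11-CLA, the latter under the detection level, and Ccl2 differed by 0.05. Ptgs2, cyclooxygenase 2, differed by -0.42, at 7.17 against 7.58 with DMSO and 8.39 with t10,c12-CLA, and by -0.12 with the mean of its probe sets. Interferon-stimulated genes had a median of 0.09, with Oasl2, Stat2 and Ifit3 at 0.43, 0.38 and 0.35 and Ifit2 and Rsad2 at -0.26 and -0.23. The other probe set of Stat2 was at -0.10, and Rsad2 was at -0.08 by the mean of its probe sets.

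Nceh1 and Npc1, genes of cholesterol release from droplets and lysosomes, were lower, although the list of LXR targets and efflux genes had a median of 0.00. Nceh1, which hydrolyses cholesterol esters, stood at 6.93 with ethanol, 6.71 with tenofovir, 10.15 with ritonavir, 9.42 with DMSO, 8.98 with c9,t11-CLA and 9.80 with t10,c12-CLA. Its difference was -0.45, with -0.26 and -0.13 by its other probe sets. Npc1, the lysosomal cholesterol exporter, went from 9.69 to 9.35. Both genes stood higher on every array with ritonavir than on the arrays without it, and lowest of those with c9,t11-CLA. Abcc4, an efflux pump for drugs and cyclic nucleotides, likewise stood lowest of the ritonavir arrays with c9,t11-CLA, with 8.71 on the ethanol array, 11.03 with ritonavir, 11.27 with DMSO, 10.89 with c9,t11-CLA and 11.32 with t10,c12-CLA.

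The genes furthest down outside the lists had unlike roles. Pacc1, a proton-activated chloride channel, was at 8.32 with DMSO and 7.45 with c9,t11-CLA, a difference of -0.87, but its other probe sets gave -0.23 and -0.13. Snhg12, a host gene of small nucleolar RNAs, went from 8.08 to 7.23, a difference of -0.85 by its single probe set, and Paqr3, a Golgi protein, from 9.66 to 9.05. Both stood lower on the ethanol array, at 6.11 and 7.98. Arsg, a lysosomal sulfatase, was at -0.66 and by its other probe set at -0.19. Sohlh2 was at -0.60 by its single probe set, and Abtb2 at -0.57 with -0.46 by its other probe set. Lztr1 (-0.46), Gas7 (-0.47), Itga9 (-0.45) and Bicral (-0.44) each had at least 1 other probe set above 0.

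The differences with c9,t11-CLA were set against those of ritonavir itself, which come from other arrays: ritonavir minus ethanol in the first experiment shares no array with c9,t11-CLA minus DMSO in the second. Of detected genes, 791 (6.39%) were at least 2-fold lower with ritonavir than with ethanol and 565 (4.56%) at least 2-fold higher. With c9,t11-CLA, 650 of the 791 lay above 0 (82.2%, against 52.3% of all detected genes), with a median of 0.14. Of the 565 genes, 382 lay below 0 (67.6%, against 47.6% of all detected genes), with a median of -0.08. Without the mitosis and S phase lists, 745 genes lower with ritonavir remained, of which 81.1% lay above 0 with a median of 0.13. The pattern was therefore not limited to the members of these 2 lists. Cell cycle genes outside the lists were not removed.

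Of the genes lower with ritonavir, 134 were at least 0.32 higher with c9,t11-CLA and 5 at least 0.32 lower. These 134 were 41.6% of the 322 genes higher with c9,t11-CLA, whereas the 791 were 6.39% of all detected genes. These 134 were also 16.9% of the 791, whereas 2.6% of all detected genes were at least 0.32 higher. Of the 135 genes lower with c9,t11-CLA, 24 (17.8%) were among the 565, which were 4.56% of all detected genes. These 24 were 4.25% of the 565, whereas 1.09% of all detected genes were at least 0.32 lower. The c9,t11-CLA difference was graded over the ritonavir difference. Genes at least 8-fold lower with ritonavir lay above 0 in 86.4% of cases with a median of 0.18, and genes over 4-fold higher in 28.6% with a median of -0.10. Across the 12386 genes Pearson's r was -0.325 and Spearman's rho -0.297, which describes genes of 4 arrays that were normalised together, and genes are not replicates.

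The 791 and 565 genes were picked by ritonavir minus ethanol, so their medians of that difference are large by the choice itself. The other differences from ethanol share the ethanol array with it, and DMSO and c9,t11-CLA were in the other experiment. The medians are therefore given as description, and their sizes were not compared. The 791 genes had a median of -1.61 for ritonavir minus ethanol, of -0.85 for DMSO minus ethanol and of -0.66 for c9,t11-CLA minus ethanol. For the 565 genes these medians were 1.32, 0.65 and 0.58. With t10,c12-CLA against the same DMSO array, 15.8% of the 791 genes lay above 0 with a median of -0.43, and 80.4% of the 565 with a median of 0.30. Of all detected genes 52.8% lay above 0 with t10,c12-CLA. The isomers thus lay on opposite sides of DMSO in both gene groups.

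**Figure D4:**
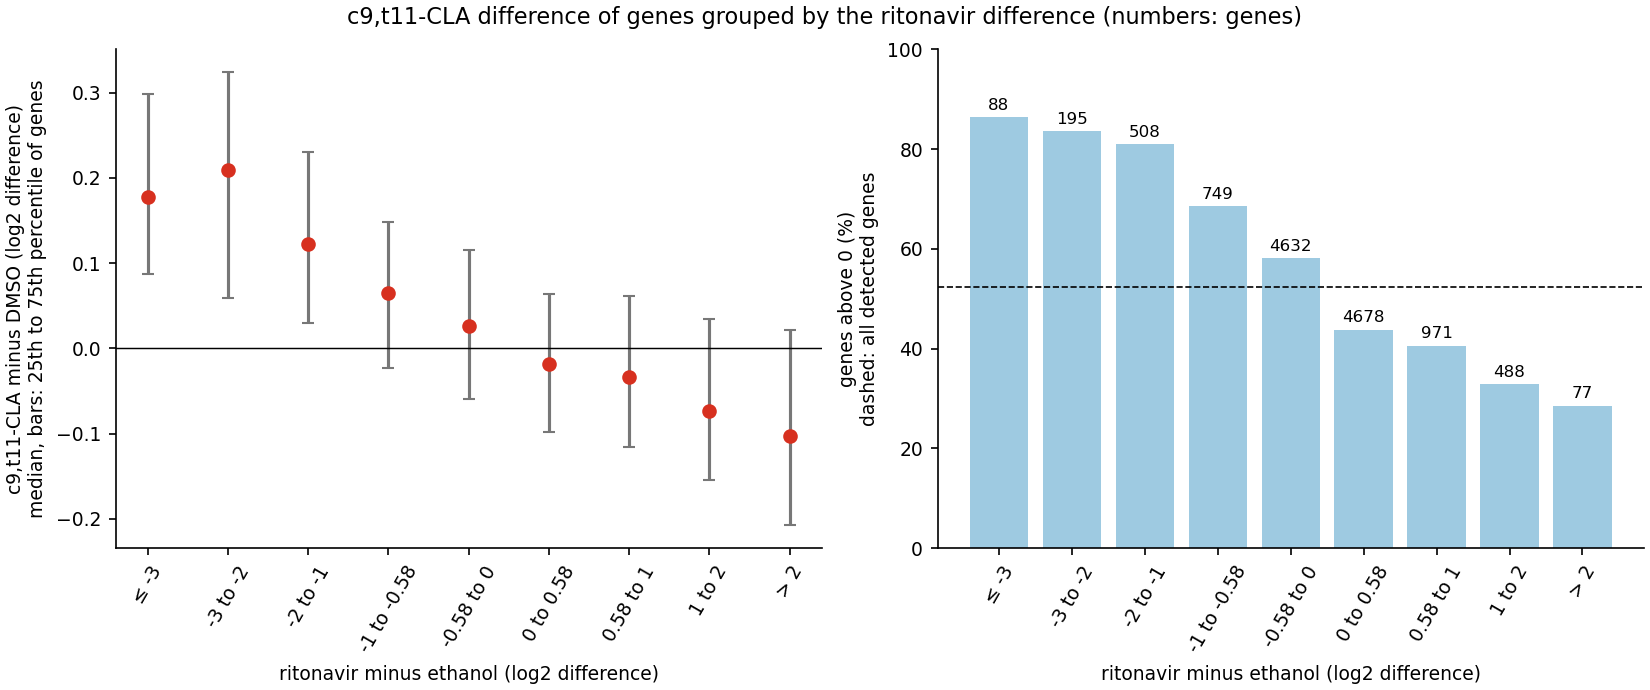
Detected genes grouped by ritonavir minus ethanol (log2, horizontal axes). Left, median difference between c9,t11-CLA and DMSO (log2) with bars from the 25th to the 75th percentile of genes; right, share of genes above 0 (%), with gene numbers over the bars and all detected genes as a dashed line; the share falls from 86.4% to 28.6% across the groups.

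Probe sets to the same gene gave the repeated measurement within the arrays. For 4977 genes with another probe set at the detection level, the mean of the others had the same sign as the brightest in 60.6% of cases. Among genes at least 0.32 higher it did in 61 of 81, with a median of 0.19 for the others. In the mitosis and S phase lists it did in 16 of 17, with a median of 0.39, close to the 0.44 of the brightest probe sets, whereas in the other higher genes it did in 45 of 64 with a median of 0.14. Among genes at least 0.32 lower the sign matched in 28 of 39, but the others had a median of -0.09 and only 3 were themselves at least 0.32 lower. Cavin1, a coat protein of caveolae that was 0.62 higher by its brightest probe set, had another at -0.06, so no direction is given for it. Of 39 mitosis or S phase genes at least 0.32 higher, 17 could be compared in this way. The mean of the other probe sets was also at least 0.32 higher for 14 of these 17. Plk1, Mki67, Kif20a, Nusap1 and Cdc6 had no other probe set at the level. Most single differences outside those lists were not repeated at their size.

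Control probe sets also differed between the arrays. The probe sets to the 5′ part of the poly-A control transcripts, which are added to the RNA before amplification, were lower on the c9,t11-CLA array in 8 of 8 cases, with a median of -0.26 and a range from -0.70 to -0.12. Those to the 3′ part had a median of 0.07. The poly-A transcripts dap, lys, phe and thr were each probed more than once. The 5′ probe sets of thr lay under the detection level on both arrays. Among mouse control transcripts the 5′ probe sets were lower in 5 of 5 cases with a median of -0.33, and the 3′ ones had a median of 0.04. That 5′ median is the transferrin receptor, at 4.28 with DMSO and 3.95 with c9,t11-CLA, under the detection level. The 5′ probe sets of Gapdh, beta-actin, 18S RNA and pyruvate carboxylase were at -0.04, -0.15, -0.48 and -0.62. The tenofovir and ethanol pair did not have this split, with poly-A medians of 0.33 at the 5′ and 0.21 at the 3′ part. These values show unequal 5′ and 3′ signal between the c9,t11-CLA and DMSO arrays, and their part in the differences of single genes was not tested. Hybridisation spikes, a further kind of control, were lower in 8 of 8 cases at the 5′ and 7 of 8 at the 3′ part. Their medians were -0.07 and -0.04.

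**Figure D5:**
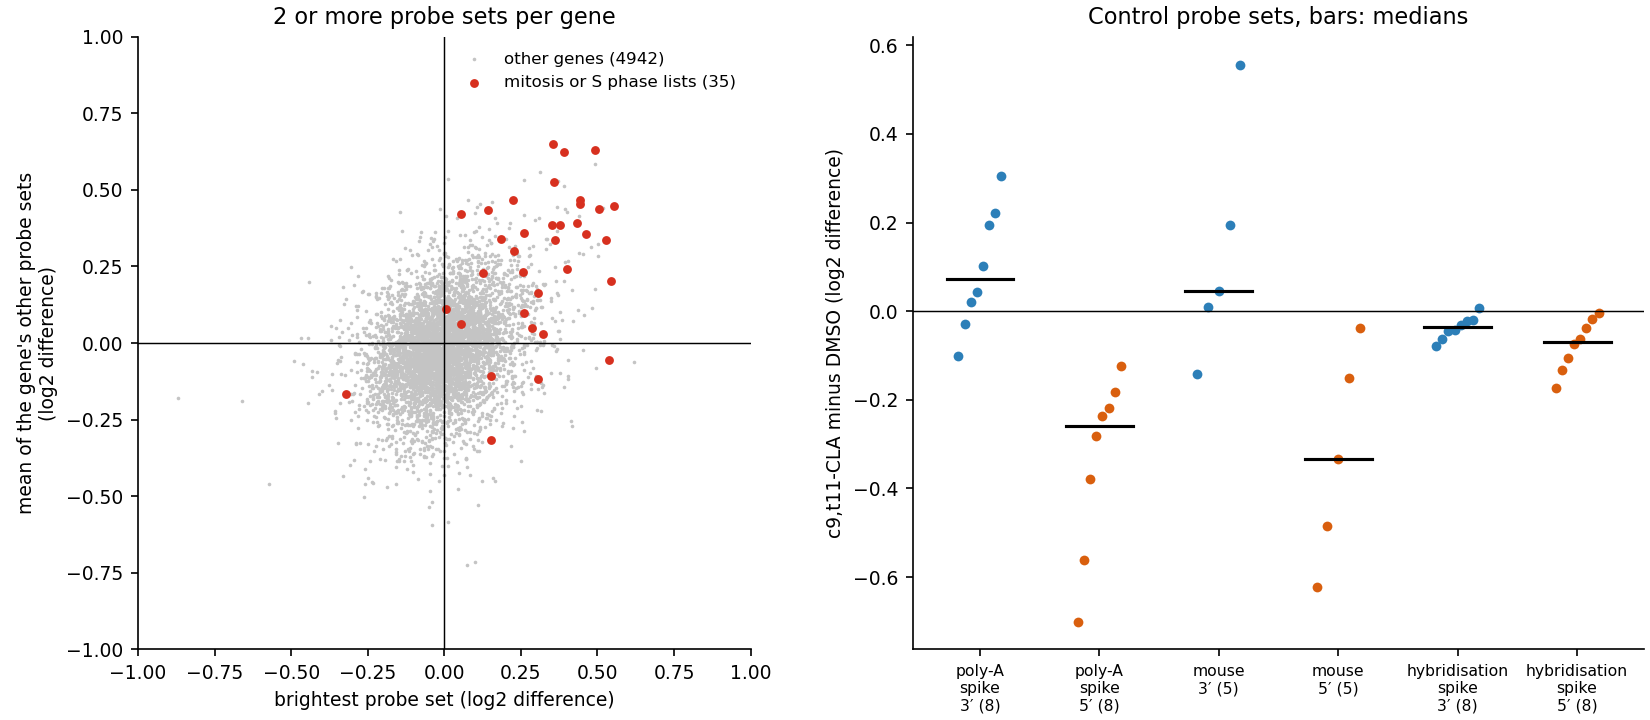
Left, difference between the c9,t11-CLA and DMSO arrays (log2) by the brightest probe set of a gene (horizontal) and by the mean of its other probe sets (vertical), with mitosis and S phase genes in red. Right, the same difference for control probe sets to the 3′ (blue) and 5′ (orange) parts of control transcripts, with bars at medians and the number of probe sets in brackets; all 8 poly-A 5′ probe sets lie below 0.

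Of 19 named adipocyte markers 17 were at the detection level on both arrays, with Lep and Cidea under it. The detected adipocyte markers had a median level of 12.41 with DMSO and 12.68 with c9,t11-CLA. Markers of other cells reached the level less often. Of 11 macrophage markers 4 reached it with DMSO, namely Cd68, Csf1r, Cd14 and Lyz2, and 3 with c9,t11-CLA. Adgre1, Itgam and Ptprc were among those under it on both. Of 12 endothelial markers 5 reached it on each array, namely Kdr, Egfl7, Eng, Esam and Erg, but not Pecam1 and Cdh5. Of 12 skeletal muscle markers 4 did with DMSO (Acta1, Ckm, Mylpf and Des) and 2 with c9,t11-CLA, but not Myod1 and Myog. Of 9 bone and cartilage markers 4 did on each array (Sp7, Alpl, Acan and Sox9). Of 12 epithelial markers 3 did with DMSO and 4 with c9,t11-CLA (Krt5, Epcam, Cldn3 and Muc1), but not Cdh1. Preadipocyte and fibroblast markers were at the level in 18 of 20 cases on both arrays, with a median difference of 0.01, against 0.38 with t10,c12-CLA. Counts at the level thus did not separate adipocytes from preadipocytes.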

How the data were processed

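RNA from 3T3-L1 cells was pooled from 4 experiments per group and each pool hybridised to 1 Affymetrix array (labels' protocols). Log2 values of 45101 probe sets were deposited, made with RMA in Affymetrix Expression Console per the submitters' processing notes, which name no version. RMA makes the arrays' distributions equal, so a shift shared by most genes would be removed. Through the platform annotation, 34958 probe sets had 1 symbol, 932 had several (not used) and 9211 were not listed, giving 18194 genes. A gene's brightest probe set is the one with the highest 6-array mean. The table has no detection calls, so 6.55 is a convention.

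With 1 array per group, differences were counted at 0.32 (log2), 1.5-fold and 2-fold and described by medians, with no test. The number of arrays limits the precision. The counting was tested on simulated data with set changes of 1.5-fold and 2-fold. Changes nearer to 0.32, the size of most differences given here, were not simulated. The comparison, its gene lists and its alternatives were chosen with earlier results of these data known. Genes named by rule were the 15 furthest up and 15 furthest down among the 11546 measured on both arrays (clone-type symbols left out), the 3 furthest each way in each of 42 lists, and Angptl4, Plin2, Col1a1, Mki67, Il6, Ccl2, Ddit3, Cpt1a, Scd1, Fasn, Slc2a4, Lep, Adipoq, Cebpa and Pparg; other genes are named as further examples from the lists, chosen after their values were seen. The lists held 1092 genes, of which 1003 had a named probe set and 922 were detected. The work used statsmodels 0.14.6, scipy 1.17.1, pandas 2.3.3 and numpy 2.4.6 under Python 3.11.15, and matplotlib 3.10.9 for plots.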

Additional observations from a re-analysis of the deposited data

How the results depend on the processing

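The limits are those of 1 array of pooled RNA per group, with no replicate error. Counts over detected genes include genes under 6.55 on the c9,t11-CLA array, the DMSO array or both. Of the 11546 genes at the level on both, 246 were at least 0.32 higher and 95 at least 0.32 lower. Of the genes at least 2-fold lower with ritonavir, 723 were at the level on both. Of these, 82.7% lay above 0 and 119 were at least 0.32 higher. No paired analysis was possible because each group has 1 array. The alternatives averaged a gene's probe sets, kept only those whose names carry no suffix for cross-hybridisation, dropped the detection filter, or used a filter at the 75th percentile (8.77) or on the mean of both arrays, raised lower values to the level, removed a lowess trend on level (span 0.3), or centred on the median. Of 336 list medians under them, 15 in 7 lists turned sign, and another 54 in 22 lists moved by over 1.5 times without turning. The medians of 20 of the 42 lists did neither. With the mean of probe sets, fatty acid oxidation was at 0.0041 and PPAR targets at 0.0023. Those for mitosis lay between 0.31 and 0.39, and for S phase between 0.22 and 0.31. The genes at least 0.32 higher numbered 205 with the mean of probe sets, 696 with no filter and 157 with the stricter filter, and those lower 82, 427 and 51. At 1.5-fold, 31 were higher and 29 lower with no filter, and 7 and 3 with the stricter one. The share of all genes above 0 ranged from 49.4% to 53.5%. With ritonavir groups taken at 1.5-fold, 75.5% lay above 0 and 62.4% below 0; under the other alternatives the shares kept within 79.9% to 82.8% and 66.0% to 70.6%. With only unsuffixed probe sets Angptl4 was at -0.38, Cavin1 at -0.0615, Lztr1 at 0.081 and Mrpl1 at 0.049. Medians over the few detected markers of other cells moved: macrophage to -0.035 with no filter and -0.056 with the filter on both arrays, endothelial to -0.12 with the stricter filter, muscle to 0.19 and 0.10, and epithelial to 0.24 and 0.21, under the stricter filter and the filter on both arrays. The causes of these moves were not tested.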

Other observations

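Of the probe sets without a gene name here, 2396 were detected. With c9,t11-CLA 93 of them were at least 0.32 (log2) higher and 45 at least 0.32 lower. At 1.5-fold there were 4 higher and 2 lower, and the differences ran from -0.60 to 0.67. Clone-type symbols, which the rule for named genes leaves out, were counted among the 11546 genes at the detection level on both arrays. There they accounted for 7 of the 246 genes at least 0.32 higher and 9 of the 95 at least 0.32 lower.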
